A study of Arabidopsis thaliana with 24 samples.

Results

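Response regulators are the last step of the cytokinin signalling chain, and 8 of their genes in Arabidopsis thaliana are described here: RR16 (AT2G40670), ARR15 (AT1G74890), RR18 (AT5G58080), RR19 (AT1G49190), RR21 (AT5G07210), RR23 (AT5G62120), RR22 (AT3G04280) and RR24 (AT5G26594). They were chosen by name, and each of the 8 matched 1 of the 16746 probe sets that the platform annotation gives to a single gene. Of 16 other response regulator genes looked for by locus, 0 had such a probe set under a name, and 20904 of the 38408 probe sets deposited are not listed in that annotation. The 8 divide into 2 type-A genes (RR16 and ARR15), 4 type-B genes (RR18, RR19, RR21 and RR23) and 2 type-C genes (RR22 and RR24).

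Cytokinin is a plant hormone that promotes cell division in shoots and delays leaf ageing. Its receptors are histidine kinases that pass phosphate groups to carrier proteins and, through these, to response regulators in the nucleus. Type-B regulators bind DNA and switch on cytokinin target genes. Type-A regulators are themselves such targets and dampen the pathway, so their transcripts are widely used as a readout of cytokinin signalling. Type-C regulators lack a DNA-binding domain and are not induced by cytokinin.

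The samples were 24 microarrays in 8 groups of 3: whole far-red (whole FR), local far-red (local FR), touch and control, each in leaf tip and petiole base. A low ratio of red to far-red light (R:FR) is the signal of neighbouring plants, and it was lowered to 0.05 over the entire rosette under whole FR, or at the leaf tip alone under local FR, on a background of 2.3. Touch and control plants stayed at 2.3. All plants were 28 d old, received 140 µmol of photosynthetic light per square metre and second for 9 h a day, and were harvested 5 h after their treatment began. Each leaf, the fifth-youngest of its plant, gave both tissues: the outermost 2.5 mm of the blade as tip, and the lowest 1.5 mm of the stalk as base. The labels give 3 independent biological replicates a group, but neither the ecotype nor how many leaves were pooled for a replicate. Whole-tissue RNA was measured, in which fewer cells of a type and less RNA per cell cannot be told apart.

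Light treatment and tissue identity showed in known marker genes. IAA29, an auxin-response gene induced by shade, was higher than in control tips by 3.34 on the log2 scale under whole FR and by 2.90 under local FR, and higher than in control bases by 5.50 and 1.67. The local FR difference in the base missed the threshold without local FR petiole base replicate 2 (adjusted p = 0.0596) and with the compared groups fitted alone (adjusted p = 0.181). FHL, a gene of phytochrome A import, rose under whole FR by 2.54 in the tip and 3.32 in the base, and HAT2, a shade-induced transcription factor gene, rose by 0.66 and 0.87. The HAT2 rise in the tip missed the threshold without whole FR leaf tip replicate 1 (adjusted p = 0.0684), 2 (adjusted p = 0.0916) or 3 (adjusted p = 0.0722) and without control leaf tip replicate 1 (adjusted p = 0.0727) or 3 (adjusted p = 0.116). Under local FR, FHL averaged 4.16 in tips and 3.56 in bases (control 2.58 and 2.79). HAT2 averaged 6.54 in local FR tips and 6.09 in local FR bases (control 5.96 and 5.10). Its difference of 0.99 in local FR bases missed the threshold with the compared groups fitted alone (limma adjusted p = 0.0827). None of these 3 genes passed the test under touch in either tissue. In control plants the photosynthesis genes LHCB4.2 (1.12) and RCA (0.78), the guard cell gene FMA (1.26) and the phloem sugar transporter gene SWEET11 (7.80) were higher in the tip than in the base, while the division kinase genes AUR1 (-2.74) and AUR2 (-1.81) and the stomatal lineage gene SPCH (-3.15) were higher in the base, each value being tip minus base. IAA29 averaged 1.24 and SWEET11 1.27 in control bases, near the floor of the arrays, so their differences from that group may be understated. The guard cell list had 3 measured genes, FMA, SPCH and MUTE. MUTE averaged 1.14 ± 0.32 in control tips and 1.49 ± 0.28 in control bases (SD, n = 3 each), both near the floor. Its higher mean was in the base, like that of SPCH and unlike that of FMA. Markers of xylem and epidermis were not measured under a name.

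Levels are log2 values from RMA, the standard summary of Affymetrix probes. On every array the 25th percentile of the 17504 probe sets tested lay between 1.12 and 1.35, and the median between 2.58 and 2.80. RR16 averaged 3.29 over the 24 arrays and ARR15 3.11, above these medians. These averages mix the tissues and treatments: RR16 group means of 2.07 to 2.40 in the base lay below the medians. So did the ARR15 mean of 2.12 in whole FR tips. The 6 type-B and type-C genes gave 144 values between 0.64 and 2.40, with a median of 1.15, and 143 of them were below 2. The plot of all members' levels shows this gap. Values that low lie close to the floor of these arrays, where a log2 difference may understate the true change, and levels of different probe sets are not compared beyond their place in the array's range.

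**Figure D1:**
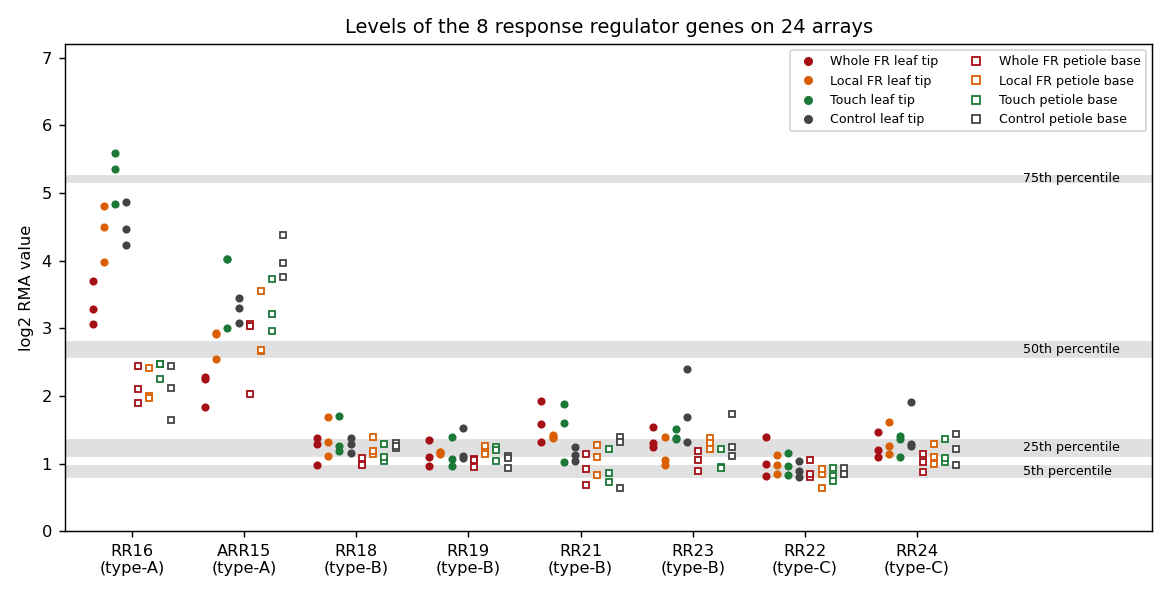
Log2 RMA value of each response regulator gene on each of 24 arrays (y axis), with 8 groups of 3 arrays side by side for each gene (x axis; filled circles leaf tip, open squares petiole base). Grey bands give the range over arrays of the 5th, 25th, 50th and 75th percentiles of 17504 probe sets; RR16 and ARR15 spread across the middle of the scale, and 143 of the 144 values of the other 6 genes lie below 2.

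All called differences from control were in the type-A genes. The other 6 genes lay close to the array floor, where a change may be understated, so the classes cannot be compared by these calls. In leaf tips under whole FR, RR16 and ARR15 were both lower than in control tips, each by a little over 1 on the log2 scale. In petiole bases under whole FR, ARR15 fell, and RR16 gave a difference of 0.08 with a 95% confidence interval of -0.43 to 0.58. A gene was called at an adjusted p below 0.05 in limma, with the Benjamini-Hochberg adjustment over all 17504 probe sets of a comparison. By that rule 2 of the 8 members were lower under whole FR in the tip, where 3.9% of all probe sets were called lower, and 1 of 8 was lower in the base, where 6.1% were. The second count is a single gene, near the background share for 8 genes. Under local FR 0 of 8 were called in the tip, where 2.05% of all probe sets were called, and 0 of 8 in the base, where 1.06% were. Under touch 0 of 8 were called in either tissue, with 0.246% of all probe sets called in the tip and 0.211% in the base. At an unadjusted p under 0.05 there were 4 of the 8 members under whole FR in the tip, beside 19.7% of all probe sets, and 1 of 8 in each of the other 5 comparisons, beside 9.12% to 22.2% of all probe sets. The median difference of the 8 members was -0.17 for whole FR in the tip and -0.20 in the base, beside medians of -0.01 and -3e-04 over all probe sets.

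**Figure D2:**
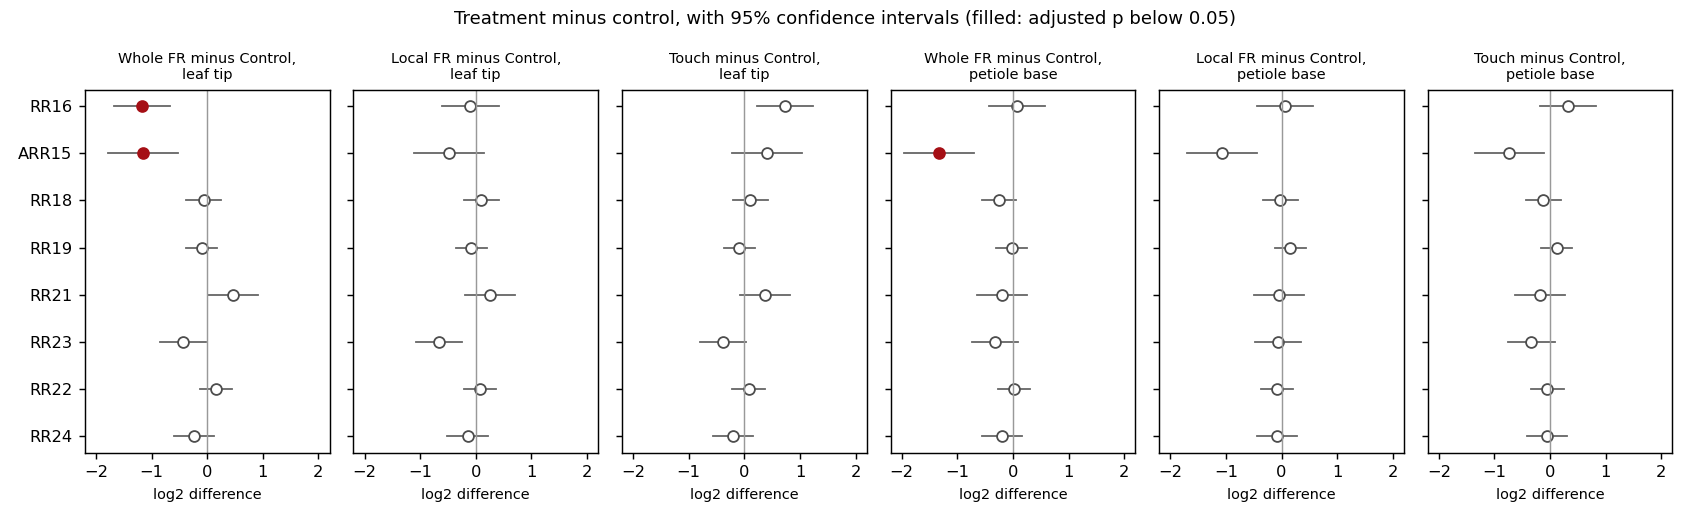
Difference from control on the log2 scale (x axis, point) with its 95% confidence interval (bar) for the 8 response regulator genes (rows) under whole FR, local FR and touch in leaf tip and petiole base (panels). The 3 filled points passed the adjusted threshold: RR16 at -1.17 and ARR15 at -1.15 in the whole FR tip, and ARR15 at -1.32 in the whole FR base.

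RR16 encodes a small type-A regulator. Its values were 3.70, 3.29 and 3.06 in whole FR tips, 3.98, 4.80 and 4.50 in local FR tips, 4.83, 5.59 and 5.35 in touch tips, and 4.47, 4.23 and 4.86 in control tips. Every whole FR tip was below every other tip, while local FR and control tips overlapped. The mean of 3.35 ± 0.32 in whole FR tips and 4.52 ± 0.32 in control tips (SD, n = 3 each) differed by -1.17 (SE 0.24, limma adjusted p = 0.00319), which is 2.25-fold lower. This call held without any single array of the comparison, at -1.35 to -1.004 and an adjusted p of at most 0.0255. Under local FR, with far-red on the tip itself, the difference from control was -0.10 (95% confidence interval -0.60 to 0.41).

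Whole FR and local FR tips received the same R:FR and differed in the light on the rest of the rosette. Whole FR tips were lower than local FR tips by a log2 difference of -1.08 (SE 0.24, limma adjusted p = 0.0187), and 1 of the 8 members was called lower, beside 1.42% of all probe sets. This call was not firm: the adjusted p was 0.115 without local FR leaf tip replicate 2, 0.0750 without local FR replicate 3, 0.0586 without whole FR leaf tip replicate 2 and 0.0891 without whole FR replicate 3, while the difference stayed between -1.30 and -0.89 over the 6 arrays left out in turn. Fitted on the compared groups alone, the same difference had an adjusted p of 0.120.

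Touch, in which the light did not change, gave the highest RR16 values of the study. Touch tips averaged 5.25 ± 0.39 against 4.52 ± 0.32 in control tips (SD, n = 3 each), a difference of 0.73 (SE 0.24, 95% confidence interval 0.23 to 1.24). It did not pass the threshold (limma adjusted p = 0.294), and the lowest touch value, 4.83, lay below the highest control value, 4.86. Local FR tips differed from touch tips by -0.83 (SE 0.24, adjusted p = 0.117); their ranges did not overlap. In that comparison 0 of 8 members were called in the tip and 0 in the base, where 1.38% and 3.81% of all probe sets were.

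In the petiole base RR16 was low throughout, at 2.44, 1.89 and 2.11 under whole FR, 2.41, 2.01 and 1.97 under local FR, 2.24, 2.47 and 2.47 under touch, and 2.11, 1.65 and 2.45 in controls. All 4 groups overlapped there, and the differences from control were 0.08 (whole FR), 0.06 (local FR) and 0.33 (touch), each with an SE of 0.24. Base values of 1.65 to 2.47 are partly below 2, where a change may be understated. The whole FR effect in the tip minus that in the base was -1.25 (SE 0.34, 95% confidence interval -1.97 to -0.53, limma adjusted p = 0.0245). RR16 was the 1 member of 8 for which the whole FR effect was called lower in the tip than in the base, beside 4.27% of all probe sets. That call also depended on single arrays: the adjusted p was 0.0748 without whole FR petiole base replicate 1, 0.0521 without whole FR leaf tip replicate 2, 0.0697 without whole FR leaf tip replicate 3, 0.0738 without control petiole base replicate 2 and 0.0756 without control leaf tip replicate 3, with differences of -1.44 to -1.04 over the arrays left out in turn.

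RR16 was higher in the tip than in the base under every condition, by 1.20 under whole FR (adjusted p = 0.000372), 2.30 under local FR (adjusted p = 1.33e-07), 2.86 under touch (adjusted p = 7.65e-09) and 2.45 in controls (adjusted p = 6.81e-08), each with an SE of 0.24. The order of its group means ran touch, control, local FR and whole FR in the tip, then touch, whole FR, local FR and control in the base, with means of 5.25 at the top and 2.07 at the bottom. Neighbours in this order overlapped, except local FR tip and whole FR tip, and whole FR tip and touch base.

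**Figure D3:**
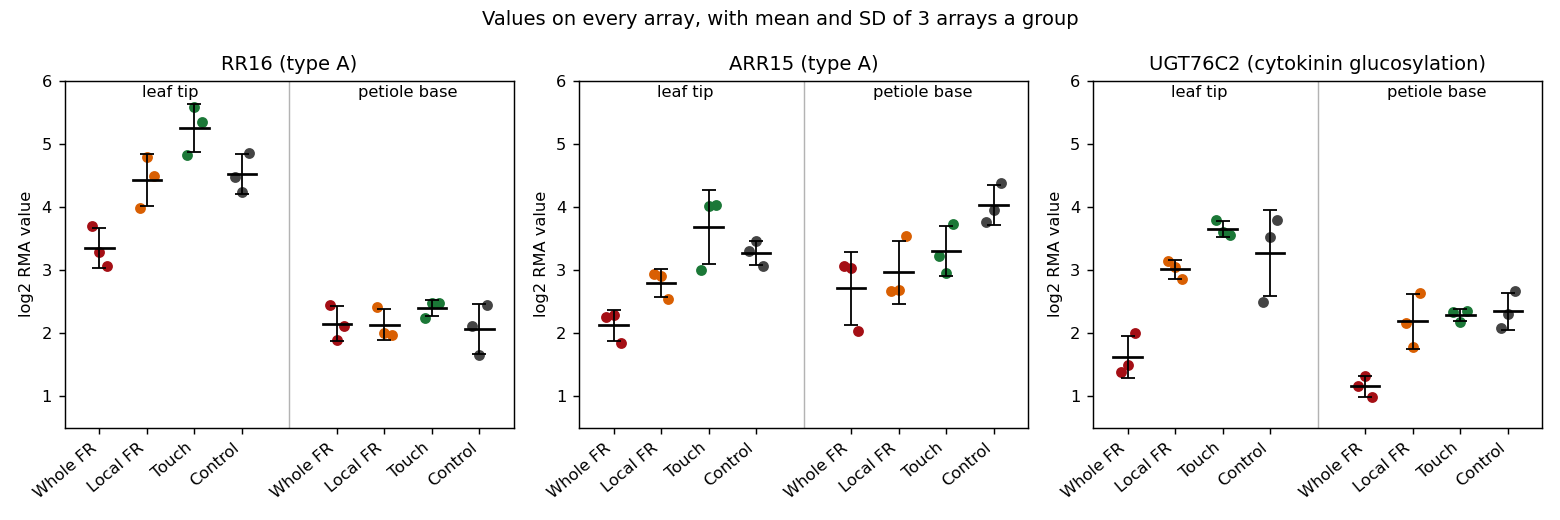
Log2 RMA value (y axis) on every array for RR16, ARR15 and UGT76C2, by treatment and tissue (x axis); points are arrays, lines the mean and bars the SD of 3 arrays. RR16 is low in whole FR tips and flat in the base, ARR15 is lowest in whole FR tips and highest in control bases, and UGT76C2 is lower under whole FR than in controls in both tissues.

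ARR15, the second type-A gene, is a primary cytokinin response gene. It had values of 2.25, 2.28 and 1.84 in whole FR tips, 2.94, 2.91 and 2.55 in local FR tips, 3.01, 4.02 and 4.03 in touch tips, and 3.30, 3.45 and 3.07 in control tips. All whole FR tips lay below all other tips, and the local FR tips lay between them and the controls without overlap. Whole FR and control tips averaged 2.12 ± 0.24 and 3.27 ± 0.19 (SD, n = 3 each), a difference of -1.15 (SE 0.30, limma adjusted p = 0.0183), or 2.22-fold lower. The adjusted p was 0.0539 without control leaf tip replicate 1, 0.0698 without control leaf tip replicate 2 and 0.0823 without whole FR leaf tip replicate 3, at differences of -1.14, -1.06 and -1.01. The ARR15 value of 1.84 in whole FR tips is below 2, where a change may be understated. Local FR tips differed from control tips by -0.48 (SE 0.30, 95% confidence interval -1.10 to 0.15, adjusted p = 0.565), and whole FR tips from local FR tips by -0.67 (SE 0.30, adjusted p = 0.341). Neither passed the threshold, so a graded order of the light treatments was not resolved for ARR15.

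In the petiole base ARR15 had 3.06, 3.03 and 2.03 under whole FR, 2.66, 2.68 and 3.55 under local FR, 3.22, 2.95 and 3.73 under touch, and 3.76, 3.96 and 4.38 in controls. Every treated base was below every control base. Whole FR bases averaged 2.71 ± 0.58 and control bases 4.03 ± 0.32 (SD, n = 3 each), a difference of -1.32 (SE 0.30, limma adjusted p = 0.0037), or 2.50-fold lower. It passed without any single array of the comparison, at -1.50 to -0.99 and an adjusted p of at most 0.0398.

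Local FR lowered the R:FR at the tip only. The base of those leaves, at the background R:FR, differed from control bases by -1.07 for ARR15 (SE 0.30, 95% confidence interval -1.70 to -0.44). This did not pass the threshold over all probe sets (limma adjusted p = 0.109, or 0.117 with the replicate number as a block). Without local FR petiole base replicate 3, the array at 3.55, the difference was -1.36 with an adjusted p of 0.0439. That array also had the highest SPCH (5.42), AUR1 (6.14) and AUR2 (3.83) of the local FR bases. Among control bases the array with the highest ARR15, replicate 3, likewise had the highest SPCH (6.84), AUR1 (6.84) and AUR2 (4.66). Touch petiole base replicate 3 was also the highest of its group in ARR15 and these markers. Other arrays went differently. Whole FR petiole base replicate 3 had the lowest ARR15 (2.03) and AUR2 (2.34) of its group, with the highest SPCH (3.81) and AUR1 (5.975). Control petiole base replicate 2 had the lowest SPCH, AUR1 and AUR2 of its group, but its ARR15 (3.96) was above that of replicate 1 (3.76). The part of these marker levels in the ARR15 difference was not tested. Without any other single array the ARR15 difference did not pass, at -1.21 to -0.90 and an adjusted p of up to 0.417. Whole FR and local FR bases differed by -0.25 (SE 0.30, 95% confidence interval -0.88 to 0.37, adjusted p = 0.821), and 0 of 8 members were called in that comparison, where 5.47% of all probe sets were. Touch bases, with no change of light, differed from control bases by -0.73 (SE 0.30, adjusted p = 0.342), and local FR bases from touch bases by -0.34 (SE 0.30, adjusted p = 0.729). These comparisons share the same 3 control arrays.

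The whole FR effect on ARR15 was -1.15 in the tip and -1.32 in the base, and the tip effect minus the base effect was 0.17 (SE 0.43, 95% confidence interval -0.71 to 1.06, limma adjusted p = 0.882), an interval that leaves room for a difference in either direction. For touch this difference was 1.14 (SE 0.43, adjusted p = 0.456), with 0.41 in the tip and -0.73 in the base. There 0 of 8 members and 0 of 17504 probe sets were called by limma, with 1507 probe sets at an unadjusted p under 0.05. For local FR the difference was 0.59 (SE 0.43, adjusted p = 0.791), and 0 of 8 members were called, beside 0.908% of all probe sets.

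ARR15 levels in the tip minus those in the base were -0.58 under whole FR (adjusted p = 0.151), -0.16 under local FR, 0.38 under touch and -0.76 in controls (adjusted p = 0.0649), each with an SE of 0.30. The control difference passed when the compared groups were fitted alone (adjusted p = 0.0242), and the whole FR difference passed without whole FR petiole base replicate 3 (-0.92, adjusted p = 0.0229). Without whole FR petiole base replicate 1 the whole FR difference was -0.41 (adjusted p = 0.42). High to low, the ARR15 group means were ordered as control base (4.03), touch tip, touch base, control tip, local FR base, local FR tip, whole FR base and whole FR tip (2.12). All neighbours in that order overlapped.

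RR16 was higher in the tip under every condition and ARR15 had no called difference between the tissues, while among the tips both had their lowest means under whole FR. Over the 12 leaf tip arrays their values had a Pearson r of 0.87, and over the 12 petiole base arrays -0.03. Over all 24 arrays r was 0.06, or 0.58 after each tissue's mean was removed. These are descriptions: the arrays of a group share a treatment, and all arrays were normalized together.

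Cell type markers were set beside these results. In whole FR tips against control tips, 0 of the 8 measured markers (LHCB4.2, RCA, FMA, SPCH, MUTE, SWEET11, AUR1 and AUR2) were called, and the largest difference was -0.45, for AUR1. The summed level of the 2 photosynthesis markers was 20.0 to 20.1 in whole FR tips and 19.9 to 20.2 in control tips. That of the 2 division markers was 4.31 to 4.79 in whole FR tips and 4.97 to 5.02 in control tips.

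In whole FR bases against control bases, LHCB4.2 was lower, at -0.69 (SE 0.14, limma adjusted p = 0.0013), as was SPCH, at -2.05 (SE 0.60, adjusted p = 0.0241). SPCH had 3.44, 2.92 and 3.81 in whole FR bases and 6.04, 3.46 and 6.84 in control bases, so control petiole base replicate 2 stood apart from the other two. The SPCH call was lost without control petiole base replicate 1 (adjusted p = 0.112) or 3 (adjusted p = 0.190), and without whole FR petiole base replicate 1 (adjusted p = 0.0601) or 2 (adjusted p = 0.103). RCA, FMA, MUTE and SWEET11 averaged 10.1, 4.70, 1.28 and 1.29 in whole FR bases, and 10.4, 4.59, 1.49 and 1.27 in control bases. The summed level of the 2 photosynthesis markers was 16.7 to 17.6 in whole FR bases and 17.9 to 18.6 in control bases, and that of the 2 division markers (AUR1 and AUR2) was 8.31 to 9.02 in whole FR bases and 7.64 to 11.5 in control bases. SPCH, AUR1 and AUR2 averaged 5.45, 6.07 and 3.49 in control bases. Their means were 4.07, 5.74 and 3.11 in local FR bases, and 2.96, 5.15 and 2.59 in touch bases. None of them was called in either group against control. Without control petiole base replicate 2, SPCH was called lower under local FR, and SPCH, AUR1 and AUR2 under touch. FMA and SWEET11 means were higher than in control bases in both groups, and LHCB4.2 and RCA means under touch only. The part of these shifts in the ARR15 differences was not tested. Without control petiole base replicate 2, ARR15 differed by -1.36 between whole FR and control bases (limma adjusted p = 0.00986). That array had the lowest SPCH (3.46), AUR1 (5.505) and AUR2 (2.13) of the control bases. Leaving it out therefore cannot tell whether the ARR15 difference depends on the marker shifts.

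Around the regulators, 7 lists of cytokinin pathway genes (synthesis, removal, transport, receptors, carriers, other regulators, response factors and targets) held 68 genes. Of the 68, 3 had a named single-gene probe set. Of the 10 listed response factors and targets, 0 had one. UGT76C1 and UGT76C2 encode enzymes that attach glucose to cytokinins and so inactivate them, and ENT8 belongs to a family of nucleoside transporters. UGT76C2 was called lower under whole FR in both tissues, UGT76C1 and ENT8 in no treatment comparison with control.

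UGT76C2 had 1.38, 1.49 and 2.003 in whole FR tips, 3.14, 3.04 and 2.85 in local FR tips, 3.79, 3.60 and 3.56 in touch tips, and 2.50, 3.52 and 3.80 in control tips. Whole FR tips lay below all other tips, and differed from control tips by -1.65 (SE 0.25, limma adjusted p = 0.000162), or 3.14-fold lower. The whole FR tip values of 1.38 and 1.49 are below 2, where a change may be understated. In the base its values were 1.16, 1.32 and 0.99 under whole FR, 2.15, 1.77 and 2.63 under local FR, 2.33, 2.18 and 2.35 under touch, and 2.08, 2.30 and 2.66 in controls. Whole FR bases again lay below the rest, differing from control bases by -1.20 (SE 0.25, adjusted p = 0.00202), or 2.29-fold lower, although the whole FR values are close to the array floor.

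Under local FR, UGT76C2 differed from control by -0.26 in the tip (SE 0.25, adjusted p = 0.76) and -0.16 in the base (SE 0.25, adjusted p = 0.959). Whole FR was lower than local FR in the tip, at -1.39 (SE 0.25, limma adjusted p = 0.00476, or 0.0537 with the compared groups fitted alone), and in the base, at -1.03 (SE 0.25, adjusted p = 0.0151). The base call was lost without local FR petiole base replicate 3 (adjusted p = 0.109) or whole FR petiole base replicate 3 (adjusted p = 0.0802). UGT76C1 had 4.74, 5.04 and 4.50 in whole FR tips and 4.46, 4.16 and 4.30 in control tips, without overlap. Its difference was 0.45 (SE 0.14, adjusted p = 0.057), and it passed after cyclic loess (adjusted p = 0.0332), without the dimmest 30% of probe sets (adjusted p = 0.047) and without whole FR leaf tip replicate 3 (adjusted p = 0.0209).

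RR18, RR19, RR21 and RR23 belong to type B, the class that activates cytokinin targets, and all 4 were near the array floor. Over the 24 arrays RR18 had a lowest, median and highest value of 0.98, 1.25 and 1.70. The same values were 0.94, 1.12 and 1.53 for RR19, 0.64, 1.23 and 1.93 for RR21, and 0.90, 1.28 and 2.40 for RR23. Of the type-C genes, RR22 had 0.64, 0.87 and 1.39, and RR24 had 0.88, 1.21 and 1.91. Group means of each of these 6 genes spanned between 0.22 and 0.77.

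Of 36 tests of these 6 genes against control, 0 were called by limma, with adjusted p between 0.111 and 0.996, and 3 had an unadjusted p under 0.05, where 9.12% to 22.2% of all probe sets did in the same 6 comparisons. The differences lay between -0.66 and 0.47, and 35 of the 36 confidence intervals stayed within 1 on the log2 scale in either direction. The exception was RR23 in local FR tips, whose interval reached -1.08. At levels this close to the floor these intervals bound the change in array signal, not in transcript.

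RR23, a type-B gene, had 1.54, 1.25 and 1.31 in whole FR tips, 1.40, 1.05 and 0.98 in local FR tips, 1.52, 1.37 and 1.38 in touch tips, and 2.40, 1.69 and 1.33 in control tips. The control tips held both the highest value and 1 within the range of the treated tips. Local FR and control tips differed by -0.66 (SE 0.20, limma adjusted p = 0.111), and whole FR and control tips by -0.44 (SE 0.20, adjusted p = 0.228). Without control leaf tip replicate 3, the array at 1.33, these differences were -0.90 (adjusted p = 0.0175) and -0.68 (adjusted p = 0.0437). Without control leaf tip replicate 1, the array at 2.40, they were -0.36 (adjusted p = 0.438) and -0.14 (adjusted p = 0.76). RR23 levels in the tip minus the base of control plants differed by 0.43 (adjusted p = 0.115). That difference was 0.67 without control leaf tip replicate 3 (adjusted p = 0.0139), 0.62 without control petiole base replicate 2 (adjusted p = 0.0325) and 0.14 without control leaf tip replicate 1 (adjusted p = 0.636).

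RR21, also of type B, had 1.93, 1.32 and 1.59 in whole FR tips, 1.39, 1.42 and 1.38 in local FR tips, 1.02, 1.89 and 1.61 in touch tips, and 1.04, 1.13 and 1.25 in control tips. All whole FR and local FR tips were above all control tips. The differences from control were 0.47 under whole FR (SE 0.22, limma adjusted p = 0.225) and 0.26 under local FR (SE 0.22, adjusted p = 0.707), neither past the threshold. In the base RR21 had 0.92, 1.15 and 0.68 under whole FR, 1.09, 1.27 and 0.84 under local FR, 1.22, 0.87 and 0.73 under touch, and 1.40, 0.64 and 1.32 in controls, and all groups overlapped.

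RR21 was the second member, beside RR16, with a called difference between the ends of the leaf. It was higher in whole FR tips than in whole FR bases by 0.69 (SE 0.22, limma adjusted p = 0.0145), but its adjusted p was 0.0891 without whole FR leaf tip replicate 1 and 0.0779 without whole FR petiole base replicate 3. RR21 lay near the array floor. The 25th percentile of the arrays was 1.241 to 1.337 in whole FR tips and 1.185 to 1.203 in whole FR bases. The part of that offset in the RR21 difference was not tested. Under touch the tip minus base difference was 0.57 (SE 0.22, adjusted p = 0.0609), which passed without touch leaf tip replicate 1 (adjusted p = 0.00877), without touch petiole base replicate 1 (adjusted p = 0.0372) and with a variance trend and robust fit (adjusted p = 0.0448). Without touch leaf tip replicate 2 it was 0.38 (adjusted p = 0.288). In control plants it was 0.02 (SE 0.22). The whole FR effect on RR21 in the tip minus that in the base was 0.67 (SE 0.31, adjusted p = 0.215), so the tissue contrast was not shown to depend on the light.

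Between tip and base, 2 of 8 members were called higher in the tip under whole FR, where 16.1% of all probe sets were. Under local FR it was 1 of 8, where 13.2% were, under touch 1 of 8, where 11.1% were, and in controls 1 of 8, where 13.5% were. The 1 gene was RR16 each time. With so large a share of all probe sets differing between the tissues, these counts are near the background.

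The genes most like RR16 were sought among the other 16745 single-gene probe sets by Pearson r over the 24 arrays. The 5 highest were AT4G15660 (r = 0.97), AT5G50915 (r = 0.95), AT4G15700 (r = 0.95), AT2G47880 (r = 0.95) and AT5G62840 (r = 0.95), all of them higher in control tips than in control bases, by 1.43 to 3.90. Much of that likeness is the contrast of tip and base. After each tissue's mean was removed, the 3 highest were AT4G15660 (r = 0.86), AT4G15670 (r = 0.86) and AT4G15680 (r = 0.83), loci that follow each other directly in the reference gene table. Neighbouring copies may share probe signal, which was not checked. In whole FR tips against control tips these 3 loci differed by -1.09, -1.25 and -2.09. In the base their whole FR differences were 0.36, -0.0023 and 0.25, and in touch tips against control tips 0.93, 2.11 and 1.69.

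The genes most like ARR15 over the 24 arrays were AT4G24175 (r = 0.85), AT3G13000 (r = 0.78), AT4G26870 (r = 0.78), AT5G10920 (r = 0.76) and AT4G36520 (r = 0.74). After removal of tissue means they were AT4G24175 (r = 0.84), AT1G09900 (r = 0.82) and a probe set named DAL1 by the platform annotation (r = 0.81). In whole FR tips against control tips AT4G24175 differed by -0.87, AT1G09900 by -0.66 and DAL1 by -0.80. In whole FR bases against control bases they differed by -0.42, -0.82 and -0.86. The profiles of the most alike genes show that ARR15 moved over a wider range than any of its 5, while 3 of the RR16 set moved over a wider range than RR16. The r values and differences of these genes are descriptions, with no test, since the genes were picked over the same arrays as the highest of 16745.

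**Figure D4:**
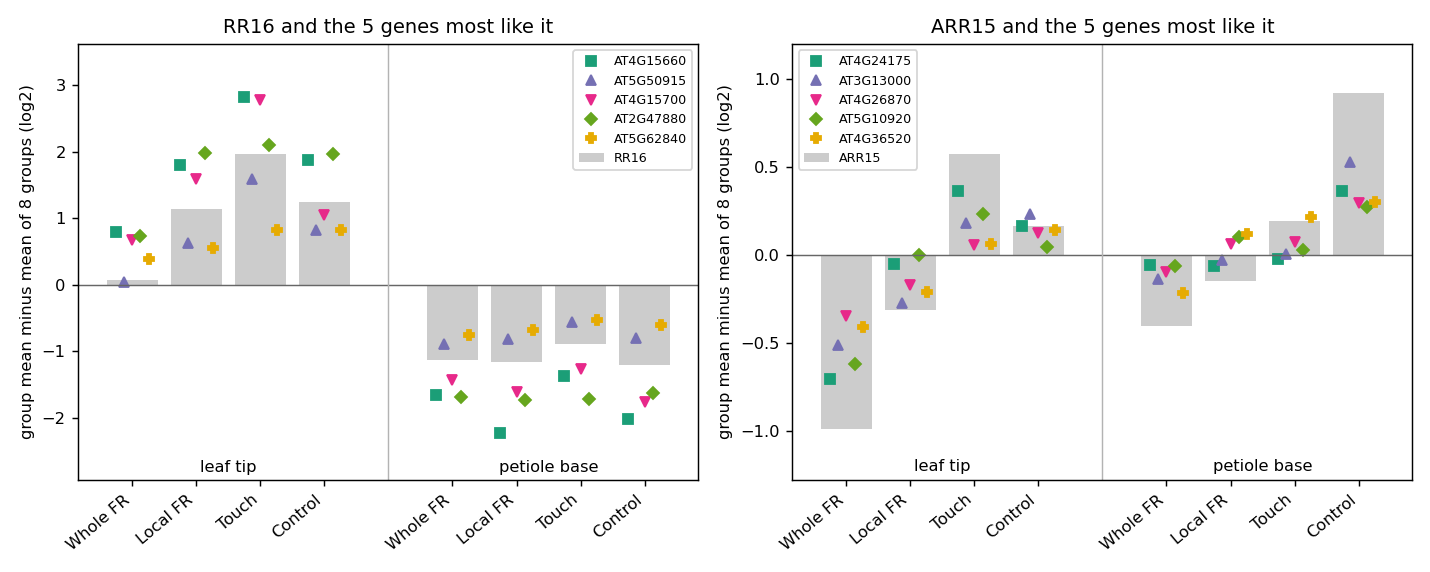
Group mean minus the mean of the 8 groups, on the log2 scale (y axis), for RR16 and ARR15 (grey bars) and the 5 genes with the highest Pearson r to each over 24 arrays (symbols), by treatment and tissue (x axis). The RR16 set separates tip and base, with whole FR lowest among the tips for RR16 and all 5 genes, and whole FR tips are the lowest of all 8 groups for ARR15 and its 5.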

How the data were processed

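Transcript levels were measured on Affymetrix arrays with biotin-labelled total RNA. The authors deposited log2 RMA values of 38408 probe sets, which per the labels come from the core-gene setting of Expression Console. The software version is not given in the sources used here. RMA corrects the background, gives the probes of every array the same distribution and then summarises them, so it removes shifts that all probes of an array share. The summarised values did not have identical distributions: the median of all deposited probe sets ran from 2.785 to 3.133 over the arrays. All values lay between -0.479 and 13.4.

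The platform annotation gave 16746 probe sets to 1 gene and 758 to several. These 17504 were fitted in limma 3.58.1 (R 4.3.3) over all 24 arrays, with 1 mean for each of 8 groups, 16 residual degrees of freedom and eBayes. There were 17 comparisons, tested two-sided with the Benjamini-Hochberg adjustment over all 17504 probe sets of each. Differences carry moderated standard errors (SE) and 95% confidence intervals, and group means carry SDs (n = 3 arrays). The number of arrays limits the precision. The fitting script was tested on simulated data.

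The members and gene lists were chosen with earlier results of these data known. The text names all 8 members, the members of the pathway and marker lists called in a treatment comparison, 3 shade genes, and, for members whose group means span at least 1, the 5 genes of highest r and the 3 after removal of tissue means. Where a comparison was made with markers, the measured members are named.

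Each leaf gave both tissues, but the model treated tip and base arrays as independent samples, without pairing by leaf. The SE and p of tip minus base differences and of interaction tests rest on this. The labels do not say what a replicate number marks. Deviations of same-numbered tip and base arrays of a treatment had r of 0.013 to 0.129 across probe sets. Deviations of same-numbered arrays correlated above 0.1 in every pair only between the petiole bases of local FR and control plants (r = 0.10, 0.18 and 0.44 across probe sets). Results were recomputed with the replicate number as a block, after an added cyclic loess, without the dimmest 30% of probe sets, over every probe set deposited, with limma's trend and robust options, on the compared groups alone, and without each array in turn.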

Additional observations from a re-analysis of the deposited data

Results flagged for a closer look

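The whole FR effect on RR16 differed between the tissues. RR16 averaged 3.35 ± 0.32 in whole FR tips and 4.52 ± 0.32 in control tips, and 2.15 ± 0.28 in whole FR bases and 2.07 ± 0.40 in control bases (SD, n = 3 each). The tip difference minus the base difference was -1.25 in limma's interaction test (SE 0.34, adjusted p = 0.0245), and the adjusted p was between 0.012 and 0.0756 over the 12 arrays left out in turn. This test treats tip and base arrays as independent, although each leaf gave both tissues. RR16 values in the base, 1.65 to 2.47 over all groups, are partly below 2 and close to the array floor, where a change may be understated. Of the 24 such tests (8 members and 3 treatments) no other passed. Among the 8 members, the next smallest adjusted p for the whole FR effect was that of RR21, at 0.215.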

How the results depend on the processing

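No difference of a member changed sign past the threshold under any alternative. Over all members, comparisons and alternatives, 1649 differences kept their side of the threshold, 15 lost a call and 10 gained one. Of the counts of members called, 199 stayed within 1.5 times the main count and 23 did not. With only the groups compared, 0 members were called for whole FR minus local FR in the tip (1 otherwise) and 2 for tip minus base in controls (1 otherwise). Without the dimmest 30% of probe sets, which left 2 of the 8 members, 1 was called for tip minus base under whole FR (2 otherwise), since RR21 was left out. With a variance trend and robust fit, 2 were called for tip minus base under touch (1 otherwise). Leaving out single arrays gave 1 to 3 members for whole FR in the tip, 0 to 1 for local FR in the tip, local FR in the base, whole FR minus local FR in the tip and the whole FR effect between tissues, and 1 to 2 for tip minus base in controls, under whole FR and under touch. The cause of these changes was not tested beyond the filter. The replicate block changed no count of members: it left 2 for whole FR in the tip and 1 in the base. Only between local FR and control bases did all same-numbered arrays correlate above 0.1 (r = 0.10, 0.18 and 0.44), which does not show what the number marks. For ARR15 in that comparison the limma adjusted p was 0.117 with the block and 0.109 without it.

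Counts over all probe sets moved more. For whole FR they were 1384 in the tip (696 to 2900 under the alternatives) and 2323 in the base (1693 to 4266), for local FR 359 (126 to 556) and 186 (27 to 327), and for touch 43 (0 to 53) and 37 (0 to 85, or up to 483 with an array left out). The low signal of 6 of the 8 members limits what these arrays can show for them.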
